A study of Mus musculus with 6 samples.

Results

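The genes described here are Myc and 39 genes of ribosome biogenesis, 40 of the 38124 genes in the deposited table. They were chosen by symbol for what their products do (the transcription factor Myc, subunits of RNA polymerase I and nucleolar processing factors), and all 40 symbols were found. RNA came from bone-marrow-derived macrophages, which are grown in culture from marrow precursors of wild type C57BL mice. The 3 untreated libraries were compared with 3 libraries from macrophages kept for 24 hr with dead thymocytes at a ratio given as 1:40 and harvested after these had been removed. Dexamethasone, a glucocorticoid drug, had been used to kill the thymocytes, and no library of macrophages given dexamethasone without dead cells was analysed here. The series' design text calls each sample a biological replicate.

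Ribosomes are assembled in the nucleolus, where RNA polymerase I makes a long precursor of the ribosomal RNAs. Small nucleolar ribonucleoproteins (snoRNPs) modify this precursor, and the small subunit processome and a series of large subunit factors cut, fold and package it with ribosomal proteins. Myc is a transcription factor that pairs with Max, binds the DNA sequence CACGTG, called an E-box, and is known as an activator of this whole programme in growing cells. Bone-marrow-derived macrophages divide in culture in response to their growth factor, so both Myc and nucleolar genes are normally expressed in them.

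Depth was 19315132 to 25933208 mapped reads per library, recovered from the deposited values. The macrophage markers were present, with a summed level of 16561 to 17348 RPKM (reads scaled by gene length and by all mapped reads of a library) in untreated and 21247 to 23737 in treated libraries over 10 genes. Most of this sum and its rise came from Lyz2, at 13388 ± 408 RPKM in untreated and 19419 ± 1128 in treated libraries. Of 20 thymocyte genes, 18 stayed below 1 RPKM in every library, and Cd3e, Cd8b1, Rag2, Ptcra and Themis were listed at 0 throughout. The exceptions were Cd4 and Lat, and the list's sum was 5.97 to 6.53 RPKM in untreated and 2.41 to 3.09 in treated libraries. The thymocyte sum was lower in the treated libraries mostly through Cd4, at 4.14 to 4.46 RPKM in untreated and 2.01 to 2.32 in treated libraries. Genes with few reads went both ways. Cd3d had 0 reads in untreated and 1 to 2 in treated libraries, and Cd5 had 13 to 19 and 0 to 4. How much thymocyte RNA was left in the treated libraries was not tested. Of the 10 macrophage markers 3 rose and 7 fell with the deposited scaling, of which 3 and 4 were called after the median-of-ratios scaling described with the counts of the 40 genes. Genes of other blood cells summed to 6.92 to 7.48 RPKM in untreated and 36.4 to 39.5 in treated libraries, mostly through S100a8 and S100a9, and their part in the results was not tested. In bulk RNA of this kind, fewer cells of a type and less RNA per cell cannot be told apart.

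Myc itself fell sharply. Its level was 9.18, 10.2 and 9.49 RPKM in untreated replicates 1 to 3 and 2.71, 2.57 and 2.48 RPKM in treated replicates 1 to 3. Every treated library was far below every untreated one, and the groups did not overlap. The mean went from 9.62 ± 0.516 to 2.59 ± 0.114 RPKM (SD, n = 3), which is 3.72-fold lower. As a difference of log2(RPKM + 1), the scale of all log2 changes given here, this was -1.57 (SE 0.0558, limma adjusted p = 2.18e-08), against -0.13 for the median of the 10173 tested genes. Untreated levels rested on 482, 662 and 595 reads and treated levels on 191, 159 and 159, so counting noise is small beside the difference. Only 2.0% of tested genes had a log2 change as low as that of Myc or lower. Myc (ENSMUSG00000022346) lies on chromosome 15, 61985391 to 61990374 (mm10).

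None of the 39 biogenesis genes changed as much as Myc. Their log2 changes ran from -0.73 (Nop58) to 0.44 (Heatr1), with a median of -0.08. Of the 40 genes with Myc included, 18 were lower and 1 was higher at an adjusted p under 0.05, and 21 did not pass. Among all tested genes 46.0% were lower and 18.8% higher, so the share of lower genes, 45.0%, was near the background, and that of higher genes, 2.5%, was below it. All 40 genes passed the expression filter, which asked for 1 RPKM in 3 of the 6 libraries. The group ranges lay apart, treated below untreated, in 20 of the 40 genes (49.1% of all tested genes), and treated above untreated in 3 (20.4% of all tested genes).

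**Figure D1:**
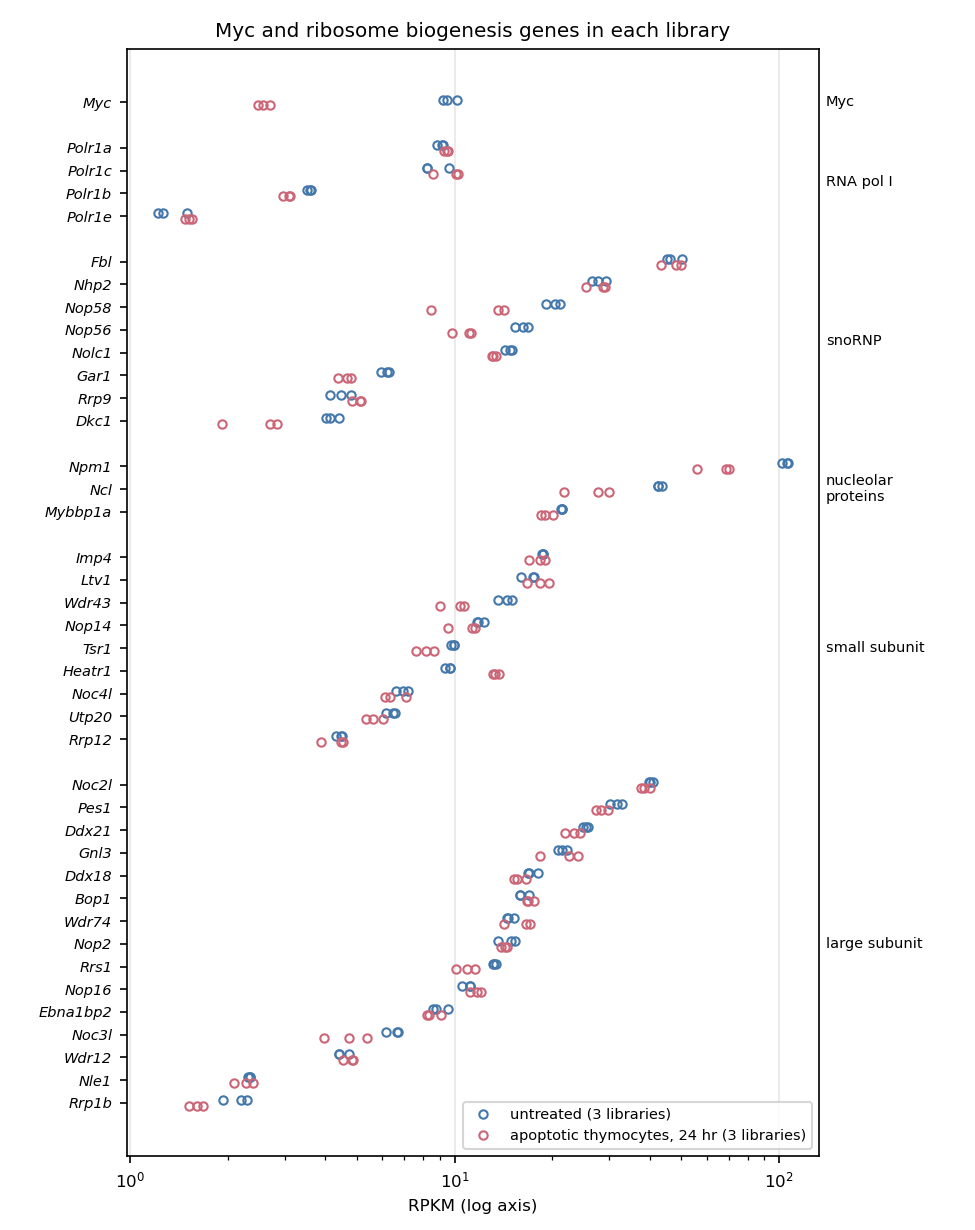
Level of each of the 40 genes in every library, on a log RPKM axis, grouped by role; blue circles are the 3 untreated and red circles the 3 treated libraries. Myc is the gene with the widest gap between the groups, while most biogenesis genes keep their place, with Npm1 the most abundant and Polr1e and Rrp1b among the least.

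The scaling of the libraries decides many of the small changes. RPKM divides by all mapped reads, and on that basis the middle gene in the ranking of tested genes changed by -0.13 (log2). Median-of-ratios scaling, which sets the libraries so that the typical gene is level, raised treated values here and moved that median to 0.015. The 40 genes then split into 9 lower and 10 higher, against a background of 27.9% lower and 31.8% higher among all tested genes. Only 10 genes had the same call under both scalings. These were Myc, Nop58, Npm1, Ncl, Dkc1, Nop56, Wdr43, Noc3l and Gar1, all lower, and Heatr1, higher. No gene was called in opposite directions by the 2 scalings. There was little room for such calls, since the log2 changes of the 40 genes differ between the scalings by similar small amounts. A count-based fit (voom) of reads recovered from the deposited values gave 19 lower and 1 higher, against 49.2% and 17.4% of all tested genes. In what follows, "under both scalings" refers to this pair.

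**Figure D2:**
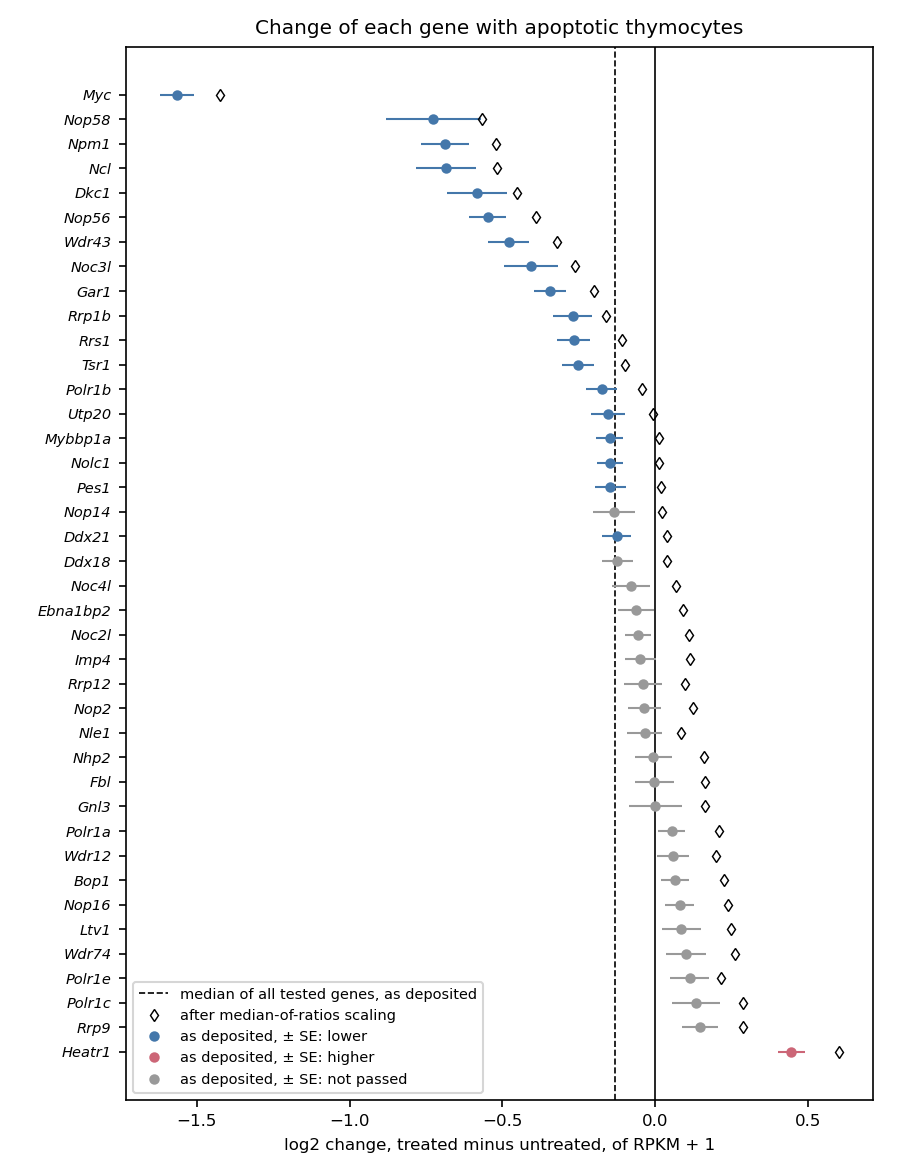
Log2 change (treated minus untreated, of RPKM + 1) of each gene, with the deposited scaling as filled circles ± SE and median-of-ratios scaling as open diamonds; blue is lower, red higher and grey not passed at an adjusted p under 0.05 with the deposited scaling. Myc stands alone at -1.57, a group from Nop58 to Gar1 stays below 0 under both scalings, and the genes from Polr1b to Rrp9 lie between -0.18 and 0.15, on either side of the dashed median of all tested genes.

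Of the 4 RNA polymerase I subunit genes, 1 fell with the deposited scaling and 3 did not pass. Polr1a, the gene of the largest catalytic subunit, was at 9.21, 9.13 and 8.85 RPKM in untreated and 9.26, 9.57 and 9.51 in treated libraries. Its treated libraries all lay slightly above the untreated ones, but the change of 0.05 did not pass (95% interval -0.05 to 0.15, adjusted p = 0.310). Polr1b, which completes the catalytic core, fell by a small amount, from 3.58 ± 0.0543 to 3.05 ± 0.0864 RPKM (log2 change -0.18, adjusted p = 0.0131), and did not pass after median-of-ratios scaling. Polr1c, a subunit shared with RNA polymerase III, was 8.69 ± 0.790 and 9.63 ± 0.913 RPKM, and Polr1e, a subunit particular to polymerase I, was 1.33 ± 0.149 and 1.52 ± 0.0405 RPKM. Neither passed as deposited with all libraries, but Polr1c passed as higher without treated replicate 1 (log2 change 0.21, adjusted p = 0.0241). After median-of-ratios scaling Polr1a, Polr1c and Polr1e passed as higher, with log2 changes of 0.21 to 0.29. Under that scaling 31.8% of all tested genes were higher.

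The snoRNP genes split within each complex. Box C/D snoRNPs guide methylation of ribosomal RNA and share the core proteins Fbl (fibrillarin, the methyltransferase), Nop56 and Nop58. Nop58 (chromosome 1, 59685006 to 59711510) fell from 20.4, 19.1 and 21.2 RPKM to 14.2, 13.6 and 8.47 RPKM (log2 change -0.73, SE 0.155, adjusted p = 0.00291). This was the lowest log2 change of the 39 genes. Treated replicate 3 was well below the other treated libraries, and without it the log2 change was -0.51, and Npm1, Nop56 and Ncl were lower. Nop56 (chromosome 2, 130274430 to 130279313) fell from 15.4, 16.2 and 16.8 to 11.1, 9.84 and 11.2 RPKM (log2 change -0.55, SE 0.0601, adjusted p = 4.48e-05). All treated libraries of Nop56 were below all untreated ones. Fbl, by contrast, was at 46.2, 50.1 and 45.1 RPKM in untreated and 43.2, 48.1 and 49.9 in treated libraries. The ranges of Fbl overlapped, and the interval of its log2 change reached from -0.15 to 0.14 (adjusted p = 0.970). Under a further scaling, by the upper quartile, Fbl passed as higher (log2 change 0.17, adjusted p = 0.0480). Rrp9, a protein specific to the U3 snoRNP, had means of 4.46 ± 0.333 and 5.05 ± 0.178 RPKM and did not pass as deposited (log2 change 0.15, adjusted p = 0.0551). It passed as higher after median-of-ratios scaling (log2 change 0.29), and also without untreated replicate 2 (adjusted p = 0.0333) or treated replicate 1 (adjusted p = 0.0433).

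Box H/ACA snoRNPs guide the conversion of uridine to pseudouridine. Dkc1, the pseudouridine synthase of this complex (dyskerin), fell from 4.15, 4.42 and 4.02 RPKM to 2.70, 2.84 and 1.93 RPKM (log2 change -0.58, adjusted p = 0.000741). Gar1, another core protein, fell from 6.14 ± 0.172 to 4.62 ± 0.219 RPKM (log2 change -0.34, adjusted p = 0.000376). The third core gene listed, Nhp2, was level as deposited at 27.8 ± 1.35 and 27.7 ± 1.98 RPKM (95% interval -0.14 to 0.13). With upper-quartile scaling Nhp2 passed as higher (log2 change 0.16, adjusted p = 0.0463). Nolc1, which chaperones both kinds of snoRNP, fell by 0.15 on the log2 scale as deposited (adjusted p = 0.0141), and its change was 0.01 after median-of-ratios scaling. Its call also ended without untreated replicate 1 (adjusted p = 0.0612).

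Nucleolin and nucleophosmin, the abundant nucleolar proteins, both fell. Npm1 (nucleophosmin, chromosome 11, 33152287 to 33163206) was the most abundant of the 40 transcripts per length and fell from 106, 106 and 102 RPKM to 69.8, 68.5 and 55.9 RPKM (log2 change -0.69, adjusted p = 5.85e-05). Ncl (nucleolin, chromosome 1, 86344719 to 86359455) fell from 43.4, 42.4 and 42.3 RPKM to 29.8, 27.7 and 21.7 RPKM (log2 change -0.68, adjusted p = 0.000255). In both genes the untreated libraries were tight and treated replicate 3 was the lowest. Without that library the log2 changes were -0.59 and -0.55, and both still passed. Npm1 has processed pseudogenes, and how reads shared with these were counted is not given in the sources used here. Mybbp1a, a nucleolar protein that binds Myb, fell from 21.3 ± 0.0998 to 19.2 ± 0.822 RPKM as deposited (log2 change -0.15, adjusted p = 0.0168), and its change was 0.01 after median-of-ratios scaling. Its call ended without any 1 of the untreated libraries or treated replicate 2 (adjusted p = 0.0523 to 0.0786). As a share of all reads on genes, the 40 genes made up 0.240% ± 0.00170 before and 0.195% ± 0.00935 after treatment. Without Ncl and Npm1 the shares were 0.170% ± 0.000982 and 0.153% ± 0.00294.

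Of the 9 small subunit genes 3 fell (33.3%), 1 rose (11.1%) and 5 did not pass, while 46.0% of all tested genes fell and 18.8% rose. Heatr1, a factor of the early processome that is also needed for transcription of the ribosomal RNA precursor (chromosome 13, 12395398 to 12438677), was at 9.66, 9.33 and 9.71 RPKM in untreated and 13.7, 13.1 and 13.4 in treated libraries. Its groups were tight and far apart, with a log2 change of 0.44 (SE 0.0441, adjusted p = 2.22e-05) and a ratio of means of 1.40. Wdr43, which belongs to the same early module of the processome, moved the other way, from 15.1, 14.5 and 13.6 RPKM to 10.7, 10.4 and 9.03 RPKM (log2 change -0.48, adjusted p = 0.000233). Tsr1, a factor of late small subunit maturation, fell from 9.89 ± 0.116 to 8.16 ± 0.524 RPKM (log2 change -0.25), and Utp20 of the processome fell from 6.40 ± 0.223 to 5.65 ± 0.352 RPKM (log2 change -0.15, adjusted p = 0.0366). The calls of Tsr1 and Utp20 held only with the deposited scaling. That of Utp20 also ended without any of untreated replicates 1 and 3 and treated replicates 2 and 3 (adjusted p = 0.077 to 0.119). Imp4, Nop14, Noc4l and Rrp12 of the processome and its products, and Ltv1, an assembly factor of the late small subunit, did not pass, with log2 changes of -0.13 to 0.09. Ltv1 was higher after median-of-ratios scaling (log2 change 0.25), and Nop14 passed as lower without treated replicate 1 (log2 change -0.18, adjusted p = 0.0401).

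Among the 15 large subunit genes 5 fell (33.3%), 10 did not pass and 0 rose, while 46.0% of all tested genes fell and 18.8% rose. The median log2 change was -0.06 in these 15 genes and -0.13 in all tested genes. Noc3l fell from 6.17, 6.67 and 6.69 RPKM to 5.39, 4.73 and 3.95 RPKM (log2 change -0.41, adjusted p = 0.00308), while its partner Noc2l was level at 40.2 ± 0.607 and 38.6 ± 1.27 RPKM (adjusted p = 0.266). Rrs1, which helps to bring the 5S ribonucleoprotein into the subunit, fell from 13.2 ± 0.158 to 10.9 ± 0.720 RPKM (log2 change -0.27), and Rrp1b fell from 2.14 ± 0.181 to 1.60 ± 0.0804 RPKM (log2 change -0.27). Of these, Noc3l alone was lower under both scalings. Pes1 (log2 change -0.15, adjusted p = 0.0295) and the RNA helicase gene Ddx21 (log2 change -0.13, adjusted p = 0.0458) were lower with the deposited scaling only. The call of Pes1 ended without untreated replicate 2 or 3 or treated replicate 1 or 2 (adjusted p = 0.0664 to 0.128). That of Ddx21 ended without any library other than treated replicate 1 (adjusted p = 0.0795 to 0.133). Bop1 and Wdr12, which form a complex with Pes1, had log2 changes of 0.07 and 0.06 and did not pass, although both were higher after median-of-ratios scaling. The other genes that did not pass were Nop2, an rRNA methyltransferase gene, Nop16, Ebna1bp2, Wdr74, Nle1, Ddx18 and Gnl3 (nucleostemin), with log2 changes of -0.12 to 0.10. Of these, Nop16 (log2 change 0.24) and Wdr74 (0.26) were also higher after median-of-ratios scaling. Wdr74 passed as higher without treated replicate 1 too. Ddx18 passed as lower without treated replicate 2 (adjusted p = 0.0462) and with voom (adjusted p = 0.0253).

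Treated replicate 3 stood apart in a subset of these genes. For each library, the log2(RPKM + 1) of a gene was set against the mean of the other 2 libraries of its group. In treated replicate 3, 6 of the 40 genes were more than 0.25 below the other treated libraries, and 0 genes were that far below in any of the other 5 libraries. The 6 genes were Nop58 (-0.65), Ncl (-0.39), Dkc1 (-0.37), Gnl3 (-0.33), Npm1 (-0.30) and Noc3l (-0.29). Only 0.167% of tested genes were as far below as Nop58 in this library. For the rest of the 6 genes that share was larger, from 2.85% (Ncl) to 7.14% (Noc3l). In the other direction, 3 genes in treated replicate 1 and 1 gene in treated replicate 2 were more than 0.25 above. Over all tested genes, 10.7% were more than 0.25 away in treated replicate 3 and 8.27% in treated replicate 1, compared with 1.71% to 2.28% in the other 4 libraries. Gnl3 did not pass with or without this library, but its value moved: it was 21.4, 22.2 and 20.8 RPKM in untreated and 24.0, 22.5 and 18.3 in treated libraries. Its log2 change was 0.00 with all libraries and 0.11 without treated replicate 3 (adjusted p = 0.0716). Without that library the 40 genes counted 17 lower and 2 higher, and Utp20 and Ddx21 lost their calls while Noc4l passed as lower and Ltv1 as higher.

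**Figure D3:**
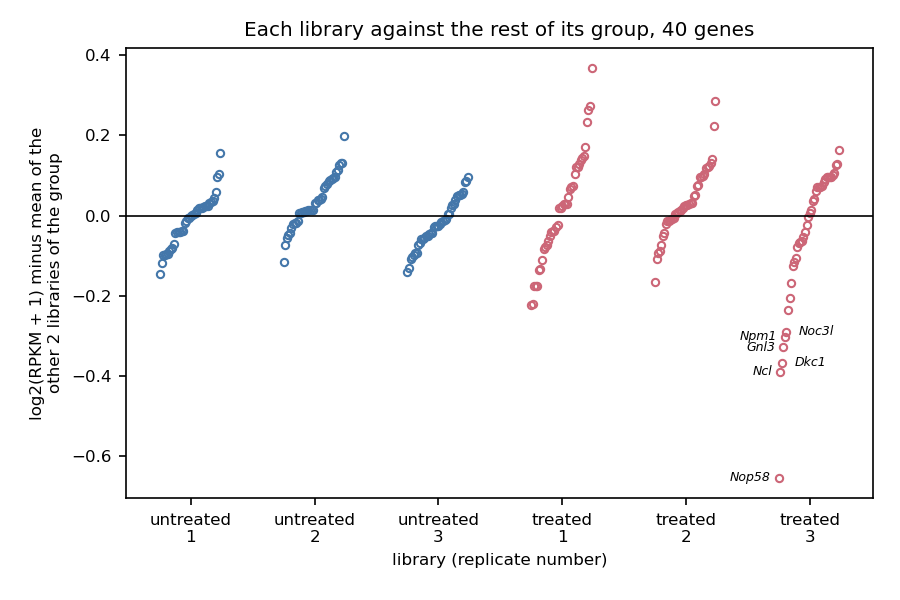
Difference of each library from the mean of the other 2 libraries of its group, in log2(RPKM + 1), 1 circle per gene for the 40 genes, sorted within a library; blue is untreated and red treated. The untreated libraries stay within -0.15 to 0.20, and treated replicate 3 has a tail of 6 named genes down to -0.65.

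Several of the genes that fell carry snoRNA genes between their exons. Many snoRNAs are not made from promoters of their own but are cut out of introns of genes for nucleolar and ribosomal proteins. In GENCODE M21, 7 of the 40 genes hold annotated snoRNA genes on their own strand, 21 in all, of which 20 lie between exons of the coding transcripts. These 7 were Nop58, Ncl, Dkc1, Nop56, Wdr43, Tsr1 and Gnl3. Dkc1 was counted only through the entry Gm25520, which has no snoRNA name. Of the 7, 6 were lower and Gnl3 did not pass, with a median log2 change of -0.55. The 33 genes without such a gene counted 12 lower and 1 higher, with a median of -0.06. Among all tested genes, 60.5% of 228 with an annotated snoRNA inside were lower and 11.8% higher (median log2 change -0.21), compared with 45.7% and 19.0% of the 9945 without (median -0.13). Of the 228, 83 held a snoRNA with a symbol that begins with Sno or Sca. Of these 83, 72.3% were lower and 3.61% higher (median log2 change -0.25). Among the 40 genes 6 held such a snoRNA, and 5 of the 6 were lower. After median-of-ratios scaling 5 of the 7 stayed lower and 0 were higher, compared with 4 lower and 10 higher of the 33 without. Of the 228 genes 66 were then lower and 51 higher, and of the tested genes without a snoRNA inside 2770 and 3171. Over all tested genes these shares were 27.9% lower and 31.8% higher. The 228 were thus near the background for lower genes and stayed below it for higher ones. Of the 83 genes with a symbol of that kind inside, 29 were lower and 7 higher under that scaling. These are counts and were given no test. Of the 6 genes that were low in treated replicate 3, 4 held a snoRNA gene, Dkc1 among them. Over the 228 tested genes, by contrast, the median difference of that library was 0.0045, near the 0.018 of the others. The snoRNAs themselves were all listed at 0 in all libraries, all 21 of them, in this poly(A) RNA, so their levels were not measured.

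**Figure D4:**
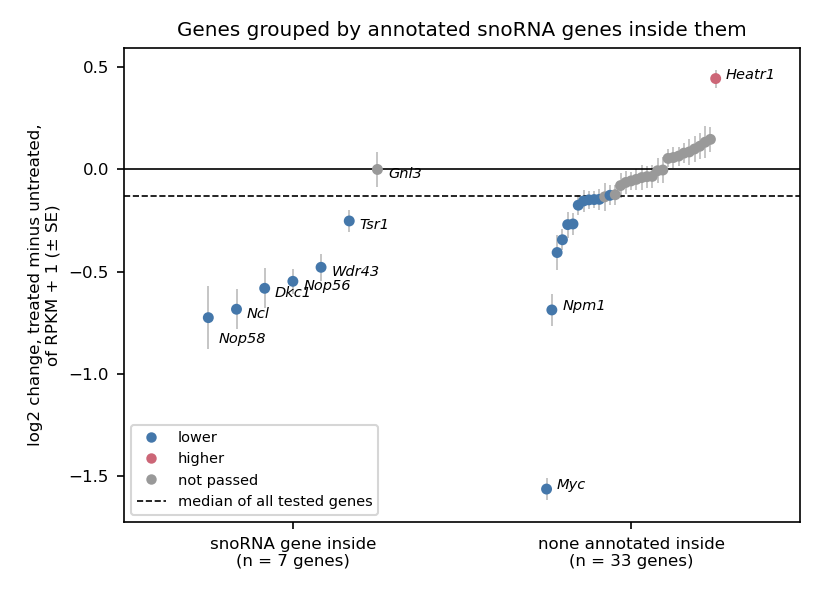
Log2 change ± SE of the 7 genes with an annotated snoRNA gene inside and of the 33 without, with blue for lower, grey for not passed and red for higher with the deposited scaling. In the first group 6 of 7 genes lie below the dashed median of all tested genes at -0.13 and Gnl3 lies at 0; the second group centres on -0.06, with Myc and Npm1 as its lowest genes.

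A box C/D snoRNA was picked from each of 5 of the host genes to show what these introns hold (GENCODE M21 transcripts, GRCm38). Proteins of the box C/D core, Nop58 among them, bind the C box and the D box near the ends of such RNAs. Capitals mark the first TGATGA (C box letters) and the last CTGA (D box letters) that were found in each.
Snord110 in Nop56 (chr2:130275506-130275573, plus strand): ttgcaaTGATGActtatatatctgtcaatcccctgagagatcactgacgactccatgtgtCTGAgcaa
Snord11 in Nop58 (chr1:59704790-59704873, plus strand): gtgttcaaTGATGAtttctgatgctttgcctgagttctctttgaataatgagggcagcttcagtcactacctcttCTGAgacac
Snord82 in Ncl (chr1:86356261-86356330, minus strand): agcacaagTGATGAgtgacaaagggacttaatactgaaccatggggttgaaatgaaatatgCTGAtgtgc
Snord92 in Wdr43 (chr17:71631281-71631365, plus strand): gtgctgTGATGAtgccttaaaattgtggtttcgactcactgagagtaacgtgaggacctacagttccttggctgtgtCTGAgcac
Snord69 in Gnl3 (chr14:31014287-31014366, minus strand): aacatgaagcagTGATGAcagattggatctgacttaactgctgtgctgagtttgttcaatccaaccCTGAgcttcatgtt
The first 4 sit in genes that were lower under both scalings, and Snord69 sits in Gnl3, which did not pass.

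E-box letters were found in the promoters of 9 of these genes. RefSeq promoter windows (GRCm38.p6, 250 bases before to 50 bases after the start of a gene) were matched for 34 of the 40 genes, 3 of them with several windows. The palindrome CACGTG, which reads the same on both strands, was in a window of 9 of the 34 genes (26.5%). It was in 12.6% of the 7420 tested genes with a window and in 7.15% of all 32851 windows. The 9 sites are shown with 30 bases each, since these letters are the ones that Myc and Max are known to bind, with CACGTG in capitals and the log2 change of the gene behind the position.
Wdr43 (chr17:71616220-71616249, plus strand, log2 change -0.48): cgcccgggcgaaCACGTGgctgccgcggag
Tsr1 (chr11:74898092-74898121, plus strand, log2 change -0.25): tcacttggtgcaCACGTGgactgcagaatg
Utp20 (chr10:88826765-88826794, minus strand, log2 change -0.15): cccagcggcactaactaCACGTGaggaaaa
Mybbp1a (chr11:72441347-72441376, plus strand, log2 change -0.15): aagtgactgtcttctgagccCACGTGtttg
Pes1 (chr11:3963965-3963994, plus strand, log2 change -0.15): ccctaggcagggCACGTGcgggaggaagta
Imp4 (chr1:34439696-34439725, plus strand, log2 change -0.05): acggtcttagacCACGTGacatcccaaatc
Nop2 (chr6:125131811-125131840, plus strand, log2 change -0.04): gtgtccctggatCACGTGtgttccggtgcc
Nle1 (chr11:82908355-82908384, minus strand, log2 change -0.03): tcggttctcctcCACGTGgggacgcaggat
Ltv1 (chr10:13193092-13193121, minus strand, log2 change 0.09): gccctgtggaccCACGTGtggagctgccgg
The sites of Imp4 and Nop2 begin 121 and 60 bases before the start site, and the other sites lie within the 50 bases after it. Of the 9 genes 5 were lower and 0 higher, with a median log2 change of -0.15. Among all tested genes with a window, 41.0% of the 935 with CACGTG were lower (median log2 change -0.10), compared with 46.2% of the 6485 without (median -0.13). Of the 25 genes with a window and no such letters 10 were lower and 1 was higher, with a median of -0.08. Nop58, Ncl, Dkc1, Nop56, Noc3l and Gar1, which were lower under both scalings, had no CACGTG in their windows, which says only that these letters are not in these 300 bases. After median-of-ratios scaling 1 of the 9 was lower and 1 higher, and of the 25 without the letters 6 were lower and 8 higher.

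Myc's partners and competitors moved little beside Myc. Max, its obligate partner, was 36.1 ± 0.808 RPKM in untreated and 37.1 ± 1.03 RPKM in treated libraries (log2 change 0.04, adjusted p = 0.428). Of 8 tested genes of the Max network, 3 rose, 2 fell and 3 did not pass. Those that rose were Mxi1, which competes with Myc for Max, from 6.44 ± 0.249 to 7.91 ± 0.132 RPKM, Mlx from 17.7 ± 0.128 to 20.1 ± 1.11 RPKM, and Mlxip, the glucose-responsive partner of Mlx, from 10.5 ± 0.365 to 15.4 ± 0.222 RPKM (log2 change 0.52, adjusted p = 8.60e-06). Those that fell were Mxd1, another competitor, from 3.34 ± 0.228 to 2.60 ± 0.0356 RPKM, and Mga from 7.46 ± 0.532 to 5.67 ± 1.14 RPKM, and neither passed after median-of-ratios scaling. Max and Mnt passed as higher under that scaling. Mycn, Mycl1, Mxd3 and Mlxipl were below 1 RPKM in every library.

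Other ribosome biogenesis genes, taken from lists of the same roles, had log2 changes of -0.56 to 0.78. Of 119 such genes 41 were lower (34.5%), 8 higher (6.72%) and 70 did not pass, with a median log2 change of -0.09. Both shares were below those of all tested genes, 46.0% lower and 18.8% higher. With median-of-ratios scaling 8 of the 119 were lower and 40 higher, against 27.9% lower and 31.8% higher among all tested genes. Of 12 further polymerase I genes 4 fell and 1 rose, with 2 lower and 4 higher after median-of-ratios scaling. Twistnb, a polymerase I subunit gene, fell from 11.0 ± 0.580 to 7.47 ± 1.15 RPKM and the initiation factor gene Taf1b from 5.40 ± 0.517 to 3.78 ± 0.260 RPKM, both under both scalings, while Polr1d rose from 28.5 ± 0.741 to 31.4 ± 1.30 RPKM. Of 12 further snoRNP genes 7 fell and 0 rose, and 3 were lower and 2 higher after median-of-ratios scaling. Among those that fell was Naf1, an H/ACA assembly factor gene, which went from 5.90 ± 0.193 to 4.51 ± 0.0650 RPKM. Of 47 further small subunit genes 13 fell and 3 rose, but 1 was lower and 16 higher after median-of-ratios scaling. Wdr3, a processome gene, rose most, from 8.76 ± 0.352 to 15.7 ± 1.03 RPKM (log2 change 0.78, adjusted p = 3.01e-06), and Pno1 rose from 26.2 ± 1.89 to 32.6 ± 0.676 RPKM, whereas Esf1 fell from 4.96 ± 0.562 to 3.10 ± 0.905 RPKM. Of 48 further large subunit genes 17 fell and 4 rose, but 2 were lower and 18 higher after median-of-ratios scaling. Those that rose with the deposited scaling included Pak1ip1 (log2 change 0.28) and Urb1 (0.33), while Nvl fell (-0.33), and these 3 calls held under both scalings.

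**Figure D5:**
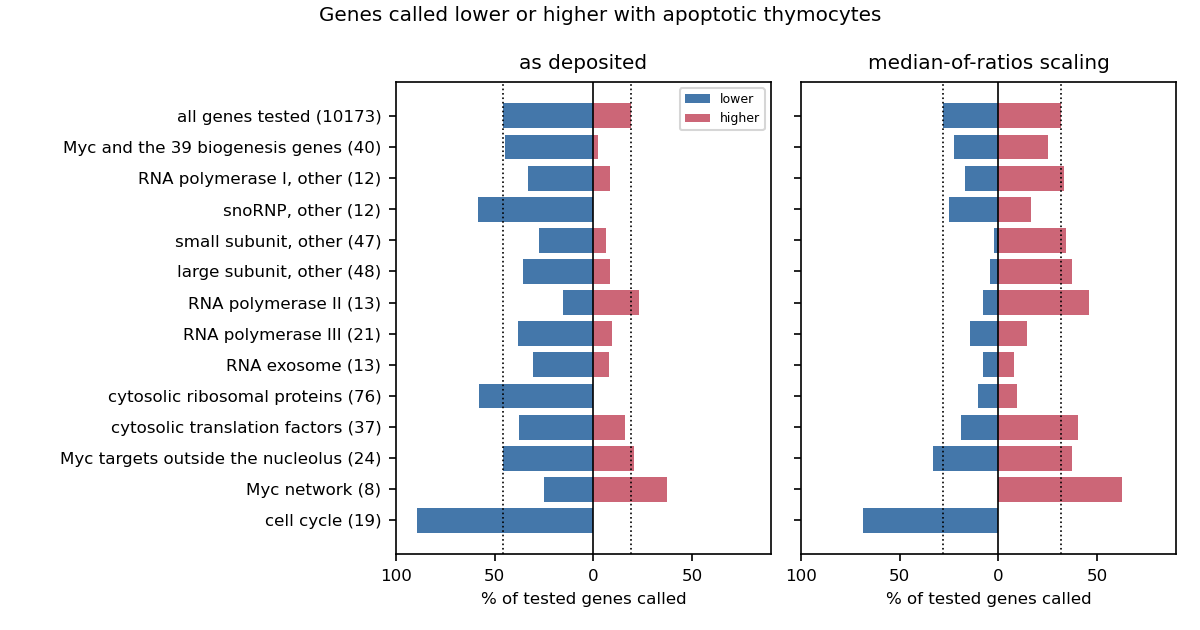
Share of the tested genes of each list called lower (blue, to the left) or higher (red, to the right), with the number tested in brackets; the left panel uses the deposited scaling and the right panel median-of-ratios scaling, and dotted lines carry the share of all tested genes down. The 40 genes, at 45.0%, are close to the background of 46.0% lower on the left and come to 9 lower and 10 higher on the right, and the cell cycle list stays mostly lower in both.

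Genes whose products make up or use the ribosome varied from list to list. Of 76 tested cytosolic ribosomal protein genes 44 were lower and 0 higher with the deposited scaling (median log2 change -0.20), but 8 lower and 7 higher after median-of-ratios scaling. Rpl5, which travels with 5S RNA, fell from 136 ± 5.86 to 104 ± 3.44 RPKM. Ribosomal protein genes have many processed pseudogenes, and their levels are uncertain for that reason. Of 37 translation factor genes 14 fell and 6 rose, but 7 were lower and 15 higher after median-of-ratios scaling. Eif4ebp1, whose product restrains cap-dependent initiation, rose from 30.5 ± 2.19 to 55.4 ± 7.18 RPKM, and Eif3e fell from 77.9 ± 2.48 to 55.6 ± 3.23 RPKM. For the polymerases that do not make the large ribosomal RNAs, 8 of 21 polymerase III genes fell and 2 rose, and 2 of 13 polymerase II genes fell and 3 rose. After median-of-ratios scaling these were 3 lower and 3 higher, and 1 lower and 6 higher. Polr2a, the gene of the largest polymerase II subunit, fell from 36.0 ± 1.22 to 24.4 ± 1.15 RPKM (log2 change -0.54). Of 13 RNA exosome genes, which trim ribosomal RNA ends, 4 fell and 1 rose, with 1 lower and 1 higher after median-of-ratios scaling. Dis3 (log2 change -0.38) was lower under both scalings.

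Genes known as Myc targets outside the nucleolus had no common direction, with 11 of 24 lower, 5 higher and 8 not passed (median log2 change -0.08), and 8 lower and 9 higher after median-of-ratios scaling (median 0.08). The largest falls among the named ones were in genes of DNA replication and lactate production. Mcm5, part of the replicative helicase, fell from 12.6 ± 0.275 to 3.24 ± 0.0801 RPKM, Pcna, the sliding clamp, from 170 ± 4.90 to 75.0 ± 2.0 RPKM, and Ldha from 150 ± 4.87 to 81.7 ± 6.25 RPKM. Nampt, the enzyme that salvages nicotinamide, rose from 44.7 ± 0.775 to 136 ± 11.8 RPKM. Beside these, 17 of 19 tested cell cycle genes fell and 0 rose (median log2 change -0.58; 13 and 0 after median-of-ratios scaling), and their summed level was 58.1 to 59.5 RPKM in untreated and 28.6 to 33.7 RPKM in treated libraries. Top2a fell from 5.51 ± 0.196 to 1.88 ± 0.284 RPKM and Kif23 from 5.36 ± 0.0725 to 1.68 ± 0.110 RPKM. The part of a changed share of dividing cells in the fall of Myc or of the nucleolar genes was not tested.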

How the data were processed

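Poly(A) RNA of 3 untreated and 3 treated libraries (TruSeq Stranded mRNA, per the labels' protocols) was analysed from the RPKM values the authors deposited, 1 column per library. The build was GRCm38 (mm10), per the submitters' processing notes. Which aligner and counting program were used, and whether strand was, is not given in the sources used here. Genes that share reads with a copy or a neighbour are uncertain for this reason, and 15 of the 40 genes have a coding exon inside another annotated gene. Each column matched 1 sample title and 0 columns were left over.

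Reads were recovered from the RPKM values. With union exon lengths of GENCODE M21, the commonest value of 1 read gave the depth, and all 18737 genes above 0 came out as whole reads within 0.001, 9371 with that length and 9366 with a length found by search. Intervals cover the spread between libraries, and the 40 genes had 110 to 8375 reads each per library.

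The 10173 genes that reached 1 RPKM in 3 or more libraries were fitted as log2(RPKM + 1). The fit used limma 3.58.1 under R 4.3.3, with treatment as its sole term and variances shrunk along the trend with level. Tests were two-sided, with p-values adjusted by Benjamini-Hochberg over all tested genes, with calls under 0.05. The fit was also run on reads simulated from untreated levels with known changes. That simulation held no shift of the typical gene and no outlying library, so it cannot decide between the scalings. Ranges, folds and SDs are of RPKM, and log2 changes understate the change of genes near 1 RPKM. Alternatives were the pseudocount, the filter, the scaling, the trend, a replicate block, leaving out each library and, added after seeing the data, voom on the recovered reads. The 40 genes and all lists were chosen with earlier results of these data known. All 40 genes are accounted for. Of each other list, the text draws on up to 3 genes with the smallest p in its main direction and up to 3 called the other way, and on every tested gene of the Max network. All 9 promoter sites are shown, and proteins were not used here. Genes low in treated replicate 3 and the snoRNAs shown were chosen after their values or letters were seen. Python 3.11.15, pandas 2.3.3, numpy 2.4.6 and matplotlib 3.10.9 were used.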

Additional observations from a re-analysis of the deposited data

How the results depend on the processing

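Scaling mattered most. With median-of-ratios scaling the 40 genes had 9 lower and 10 higher calls, all tested genes 2836 and 3235, and the 119 other biogenesis genes 8 and 40; with upper-quartile scaling these were 9 and 12, 2814 and 3280, and 8 and 42. Fbl (adjusted p = 0.0480) and Nhp2 (0.0463) were called higher with upper-quartile scaling but not with median-of-ratios scaling. Without the intensity trend 17 of the 40 genes were lower and 2 higher, with Rrp9 gained (adjusted p = 0.0496) and Ddx21 lost (0.0607). Without the filter 16 were lower and 1 higher, with Utp20 (0.0637) and Ddx21 (0.0614) lost. The filter at 5 RPKM left 15 lower and 1 higher among fewer genes tested. Leaving out 1 library at a time gave 14 to 18 lower and 1 to 4 higher calls among the 40 genes, and 27 to 38 lower and 4 to 8 higher among the 119. The 4 higher calls among the 40 genes came without treated replicate 1, and 2 came without untreated replicate 2 or treated replicate 3. Among the 119, 27 were lower without untreated replicate 1 or 2, and 4 were higher without untreated replicate 1 or 3. Log2 changes turned positive for 16 genes with median-of-ratios and upper-quartile scaling, in that order: Fbl 0.16 and 0.17, Nhp2 0.16 and 0.16, Gnl3 0.16 and 0.17, Nop2 0.12 and 0.13, Imp4 0.11 and 0.12, Noc2l 0.11 and 0.11, Rrp12 0.10 and 0.10, Ebna1bp2 0.0893 and 0.0924, Nle1 0.0848 and 0.0871, Noc4l 0.0694 and 0.0724, Ddx18 0.0372 and 0.0404, Ddx21 0.0372 and 0.0405, Nop14 0.0225 and 0.0256, Pes1 0.0187 and 0.0220, Mybbp1a 0.0135 and 0.0168 and Nolc1 0.0116 and 0.0148. Leaving out 1 library gave ranges on both sides of 0 for Fbl (-0.0460 to 0.0560), Nhp2 (-0.0410 to 0.0519), Rrp12 (-0.0739 to 0.0186), Nle1 (-0.0645 to 0.00223) and Gnl3 (-0.0778 to 0.109). Both scalings raised treated values relative to untreated ones in these data. The factors by which values were divided were 0.93 to 0.95 in treated and 1.06 to 1.07 in untreated libraries.

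With the replicate block 17 of the 40 genes were lower and 1 higher, with Ddx18 gained (adjusted p = 0.0433) and Utp20 (0.0516) and Ddx21 (0.0609) lost, and all tested genes counted 4627 lower and 1904 higher. Equal replicate numbers share only a number: deviations of same-numbered libraries correlated at 0.197, -0.031 and -0.162 across genes. Voom on the recovered reads gave 19 lower and 1 higher. The pseudocount of 0.1 kept every call among the 40 genes. With as few as 110 reads behind a value, counting error as well as the spread between libraries can limit the small changes.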
